A study of Rattus norvegicus with 8 samples.

Results

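Cytochrome P450 enzymes of families 1 to 4 were followed in rat liver 8 h after a glucocorticoid, an activator of AMP-activated protein kinase (AMPK), or both. A probe set, the group of probes on the array that reads one transcript, was taken as a member when its annotation gave 1 gene symbol made of Cyp, a family number from 1 to 4, a subfamily letter and a number. This gave 46 of 31042 probe sets, which stood for 42 of 14217 genes: 3 genes of family 1, 25 of family 2, 4 of family 3 and 10 of family 4, in 18 subfamilies. A further 4 probe sets of these families carried several symbols and were left out. Where a gene had more than 1 probe set (Cyp2d4, Cyp2j3, Cyp4a8 and Cyp4v3), the brightest of them on average stood for it.

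The livers came from male Sprague-Dawley rats of 180 to 200 g; the labels name no genetic change. All animals received an injection into the peritoneum and one into muscle. In the vehicle group both were saline, in the dexamethasone group the muscle injection held the synthetic glucocorticoid dexamethasone at 1.5 mg/kg, in the AICAR group the peritoneal injection held the AMPK-activating nucleoside AICAR at 0.7 g/kg, and the combination group received both agents. Each group held 2 Affymetrix arrays hybridised with labelled RNA of whole liver, and the labels leave unsaid whether these were separate animals, so p-values rest on a spread between arrays that may be technical. Every level given is the deposited RMA value, a background-corrected and quantile-normalised signal on the log2 scale, and every difference is a difference of group means on that scale ± its standard error from limma (n = 2 arrays per group). A gene is said to have risen or fallen where limma's p, adjusted by Benjamini-Hochberg over the 31042 probe sets, was under 0.05. Levels of different genes are not set against each other, because each probe set has its own response.

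P450 enzymes are haem proteins, mostly of the endoplasmic reticulum, that insert oxygen into lipophilic substrates with electrons from cytochrome P450 oxidoreductase. Families 1 to 3 are best known in liver for the clearance of drugs and other foreign compounds and for steroid hydroxylation, and family 4 for the hydroxylation of fatty acids and eicosanoids. Many of these genes are controlled by ligand-activated receptors: family 1 by the aryl hydrocarbon receptor AHR, Cyp2b and Cyp3a by the xenobiotic receptors PXR (Nr1i2) and CAR (Nr1i3), and Cyp4a by the fatty acid receptor PPARα. In rats, several Cyp2c, Cyp2a and Cyp3a genes are also set by the sex-specific pattern of growth hormone.

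Within each group, both arrays together had r = 0.997 to 0.998 over probe sets, and arrays of different groups 0.979 to 0.993, and array medians lay between 5.22 and 5.27. The liver label was checked on 9 hepatocyte markers (of 10 listed), whose summed level was 17.1 on every array, on the log2 scale. All 9 were bright, with vehicle means of 13.4 to 14.7, and none was called after dexamethasone, while 1 rose and 1 fell after AICAR, and 1 rose and 2 fell after both. The summed level of 11 macrophage markers (of 13 listed) was 12.5 on the vehicle arrays, 11.3 to 11.5 with dexamethasone, 12.6 with AICAR and 9.37 to 9.38 when both were given. Of the 11, 10 fell after dexamethasone and 11 after both. Of 10 lymphocyte markers 4 fell after dexamethasone and 7 after both (summed level 8.81 to 8.83 in vehicle, 8.19 to 8.32 and 7.94 to 7.98), and 2 fell after AICAR (8.62 to 8.68). Of 9 endothelial markers 5 fell after dexamethasone, 1 after AICAR and 4 after both (11.96 to 12.01 in vehicle, then 11.4 to 11.5, 11.8 and 11.5). Of 12 stellate cell markers 2 rose and 3 fell after dexamethasone, 6 rose after AICAR, and 5 rose and 4 fell after both (12.3 in vehicle, then 11.99 to 12.06, 12.5 and 11.9). Of 5 cholangiocyte markers none was called after dexamethasone, 1 rose and 1 fell after AICAR and 1 rose after both (8.74 to 8.77 in vehicle, then 8.67 to 8.73, 8.58 to 8.66 and 8.85 to 8.93). Of 5 erythroid markers 3 fell after dexamethasone, 1 after AICAR and 3 after both. Beside these counts, 8.37% of all genes rose and 14.3% fell after dexamethasone, 6.22% and 8.96% after AICAR, and 15.9% and 18.4% after both. RNA quality, read as the 3′ signal of the actin control minus its 5′ signal, was 2.23 on average for vehicle, 2.04 for dexamethasone, 1.82 for AICAR and 1.80 for the combination. The part of these shifts in the P450 results was not tested. In whole liver, fewer cells of a type and less RNA per cell cannot be told apart.

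Most P450 genes that responded fell, and they fell most widely when both agents were given. After dexamethasone 8 of the 42 genes rose and 15 fell, where 8.37% of all 14217 genes rose and 14.3% fell. After AICAR 4 rose and 8 fell, where 6.22% of all genes rose and 8.96% fell. After both agents 6 rose and 23 fell, against 15.9% and 18.4% of all genes. The median difference of the 42 genes from vehicle was -0.17 with dexamethasone, -0.03 with AICAR and -0.29 with both agents, while the medians of all probe sets were 0.00, 0.01 and 0.01. The share of P450 genes that fell after both agents was thus 54.8%, and the share that rose, 14.3%, was close to that of all genes.

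Bright genes were called more often than others, and many P450 probe sets were bright. Of the 42 genes, 28 had a mean level above 7.97, the upper quartile of all genes. Of these bright P450 genes 64.3% were called after dexamethasone, against 38.3% of all bright genes, and 82.1% were called after both agents, against 58%. After AICAR the shares were 32.1% and 24.6%, which are close. The count after AICAR also rested on single arrays: it went from 12 to 6 without vehicle replicate 1 and to 6 without AICAR replicate 1.

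**Figure D1:**
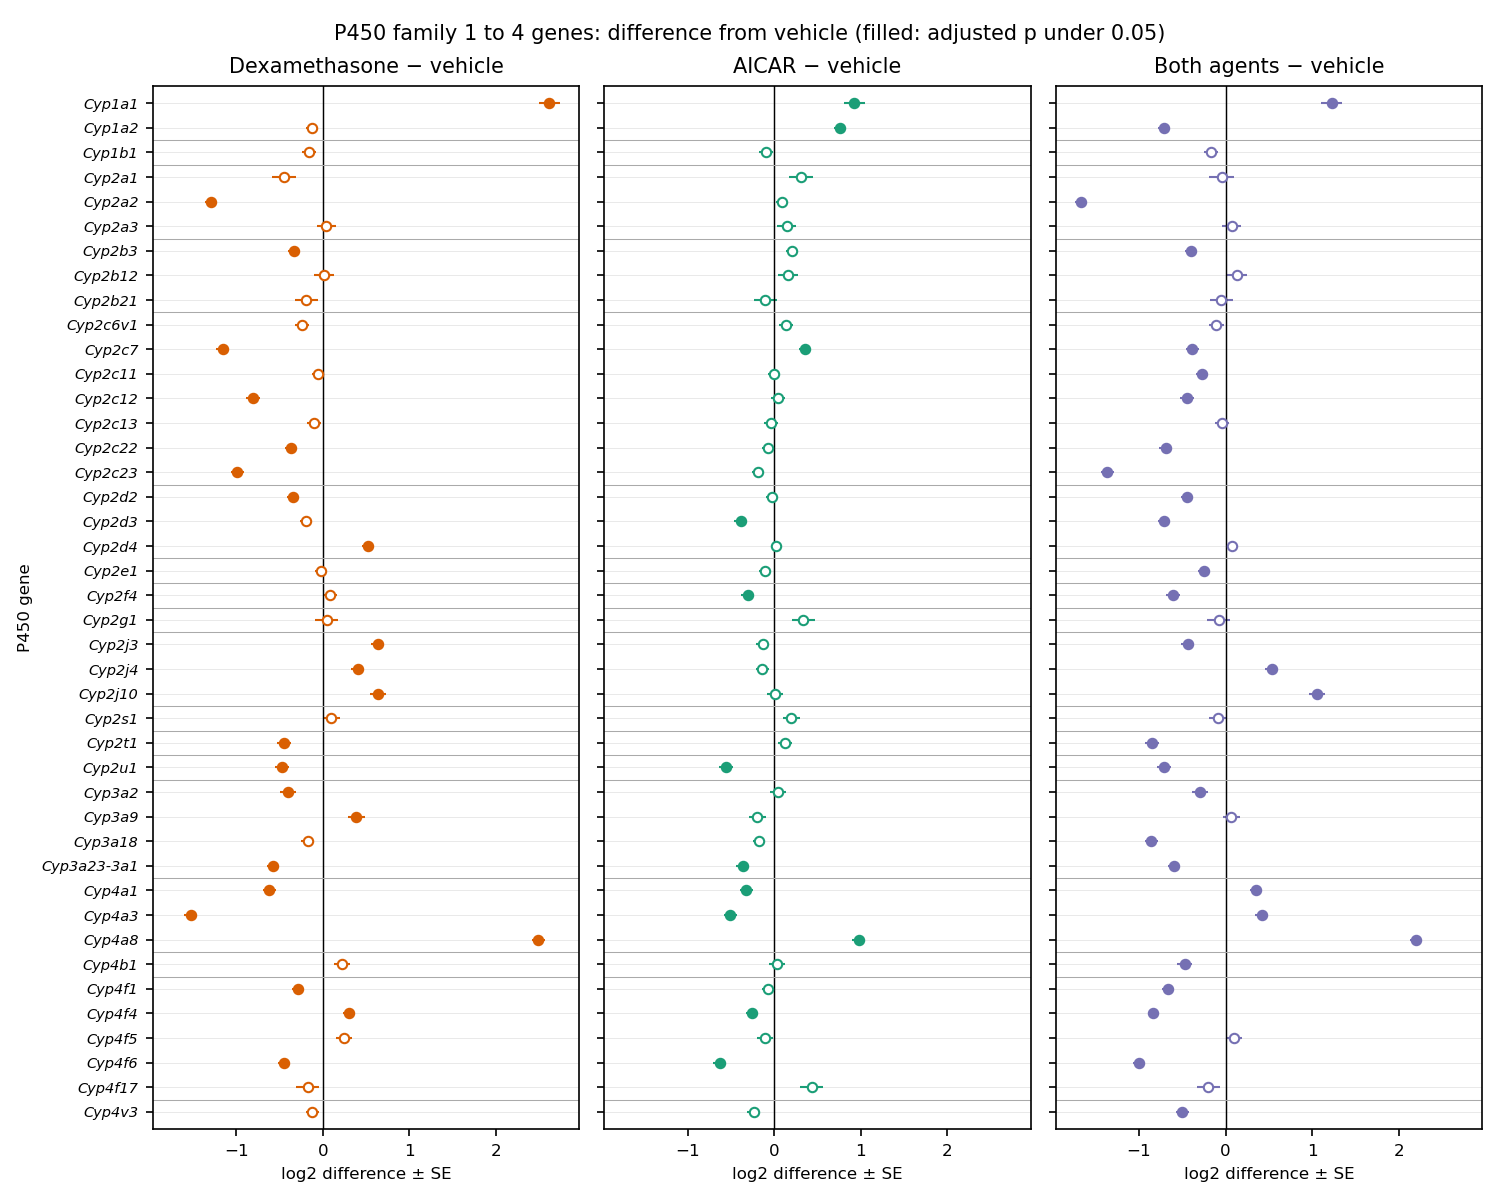
Difference from vehicle of the 42 P450 genes on the log2 scale, with bars for 1 standard error, in 3 panels for dexamethasone, AICAR and both agents; genes are ordered by subfamily, and filled points passed an adjusted p of 0.05. Cyp1a1 and Cyp4a8 lie far to the right after dexamethasone, and after both agents 23 filled points lie left of 0 and 6 lie right of it.

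Family 1 holds the textbook targets of AHR, and its 2 Cyp1a genes, which are neighbours on chromosome 8, both rose after AICAR. Their differences from vehicle were unlike after dexamethasone and after both agents. Cyp1a1 (probe set 1370269_at), the inducible hydroxylase of polycyclic aromatic hydrocarbons, read 4.67 and 4.88 in vehicle, 7.35 and 7.43 after dexamethasone, 5.65 and 5.75 after AICAR, and 6.17 and 5.83 after both. All arrays of each treatment lay above both vehicle arrays, and the dexamethasone arrays lay highest. Cyp1a1 rose by 2.62 ± 0.12 after dexamethasone (6.13-fold, limma adjusted p = 2.75e-06), by 0.92 ± 0.12 after AICAR (adjusted p = 0.00234) and by 1.22 ± 0.12 after both (adjusted p = 0.000116). With both agents it was lower than with dexamethasone alone by 1.39 (difference -1.39 ± 0.12, adjusted p = 0.000102). Against AICAR alone, the combination differed by 0.30 ± 0.12 (adjusted p = 0.0936).

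Cyp1a2 (1387243_at), the constitutive hepatic enzyme of caffeine and arylamine oxidation, read 12.20 and 12.21 in vehicle, 12.08 and 12.09 after dexamethasone, 13.00 and 12.94 after AICAR, and 11.47 and 11.51 after both. It was highest after AICAR and lowest after the combination, with no overlap between groups. Cyp1a2 rose by 0.76 ± 0.07 after AICAR (1.70-fold, limma adjusted p = 0.00041) and fell by 0.71 after both (-0.71 ± 0.07, adjusted p = 0.000109), and its difference after dexamethasone alone was -0.12 ± 0.07 (adjusted p = 0.296). The combination lay below AICAR alone by 2.78-fold (-1.48 ± 0.07, adjusted p = 1.74e-06). Cyp1b1, a mainly extrahepatic oestrogen hydroxylase, read 5.38 to 5.67 over all 8 arrays and passed the threshold in no comparison.

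The bases just before the start of Cyp1a2 are printed because its level followed neither single agent when both were given. They are the 250 bases upstream of the transcription start in RefSeq's GRCr8 build, chr8:66978150-66978399 on the minus strand, with a TATAAA run and a nuclear receptor half-site (AGGTCA on either strand) in capitals.
Cyp1a2: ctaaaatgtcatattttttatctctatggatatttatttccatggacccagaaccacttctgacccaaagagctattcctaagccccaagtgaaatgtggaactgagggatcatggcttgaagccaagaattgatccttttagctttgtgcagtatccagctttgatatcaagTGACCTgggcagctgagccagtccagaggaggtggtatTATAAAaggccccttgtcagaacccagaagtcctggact
TATAAA began 39 bases before the start and the half-site, here on the opposite strand, 77 bases before it. The core of the AHR response element, GCGTG on either strand, was not among these letters, and it was present in 25.9% of the 33469 rat promoters of this length.

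Family 4 held a gene that rose with every treatment and 2 genes that fell with each agent alone and rose with both. The Cyp4a enzymes hydroxylate fatty acids at the end of the chain and are classic PPARα targets. Cyp4a8 (1368607_at) read 5.84 and 5.82 in vehicle, 8.36 and 8.27 after dexamethasone, 6.85 and 6.76 after AICAR, and 8.01 and 8.04 after both. All treated arrays lay above both vehicle arrays, those with dexamethasone highest, and no groups overlapped. Cyp4a8 rose by 2.49 ± 0.07 after dexamethasone (5.60-fold, limma adjusted p = 3.02e-07), by 0.98 ± 0.07 after AICAR (adjusted p = 0.000163) and by 2.20 ± 0.07 after both (adjusted p = 2.57e-07). Its other probe set (1393894_at) rose by 2.15, 0.80 and 1.55 in the same comparisons.

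Cyp4a3 (1370397_at) moved the other way. It read 11.41 and 11.30 in vehicle, 9.79 and 9.88 after dexamethasone, 10.86 and 10.84 after AICAR, and 11.77 and 11.77 after both. The combination arrays lay above vehicle, while the arrays of each single agent lay below it. Cyp4a3 fell by 1.52 after dexamethasone (-1.52 ± 0.08, 2.87-fold lower, limma adjusted p = 3.79e-06) and by 0.51 after AICAR (-0.51 ± 0.08, adjusted p = 0.00407), and rose by 0.42 ± 0.08 after both (adjusted p = 0.00346). Between dexamethasone alone and both agents it rose 3.83-fold (1.94 ± 0.08, adjusted p = 1.04e-06).

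Cyp4a1 (1368934_at), the neighbour of Cyp4a3 on chromosome 5, showed the same order of groups at a smaller scale. It read 10.58 and 10.47 in vehicle, 9.89 and 9.91 after dexamethasone, 10.21 and 10.19 after AICAR, and 10.87 and 10.87 after both. No groups overlapped. Its differences from vehicle were -0.62 ± 0.07 after dexamethasone (limma adjusted p = 0.000535), -0.32 ± 0.07 after AICAR (adjusted p = 0.0237) and 0.35 ± 0.07 after both (adjusted p = 0.00674). The fall after AICAR was lost when vehicle replicate 1 or either AICAR array was left out.

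The upstream bases of Cyp4a3 and Cyp4a8 are shown together, since these relatives, with 2 other protein-coding genes between them in GRCr8, responded to dexamethasone in opposite directions. Both windows are 250 bases on the minus strand, at chr5:134352237-134352486 for Cyp4a3 and chr5:133970227-133970476 for Cyp4a8, with AGGTCA in capitals.
Cyp4a3: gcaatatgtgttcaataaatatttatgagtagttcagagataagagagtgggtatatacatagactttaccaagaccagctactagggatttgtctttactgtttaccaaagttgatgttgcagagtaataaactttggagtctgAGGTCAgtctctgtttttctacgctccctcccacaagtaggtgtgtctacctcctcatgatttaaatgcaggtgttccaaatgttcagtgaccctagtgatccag
Cyp4a8: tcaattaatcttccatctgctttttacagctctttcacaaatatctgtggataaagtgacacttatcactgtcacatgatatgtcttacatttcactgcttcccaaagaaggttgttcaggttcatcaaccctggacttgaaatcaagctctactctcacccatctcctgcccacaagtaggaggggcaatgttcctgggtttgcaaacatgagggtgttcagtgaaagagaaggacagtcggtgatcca
The half-site lay 105 bases before the start of Cyp4a3, and none of the 4 motifs searched (the AHR core GCGTG, the TATA box TATAAA, the nuclear receptor half-site AGGTCA and the glucocorticoid receptor half-site AGAACA, each on both strands) was among the letters of the Cyp4a8 window. AGGTCA was present in 12 of the 35 P450 promoters that the table holds (34.3%) and in 14.1% of all promoters, AGAACA in 6 (17.1%) and 17.5%, TATAAA in 10 (28.6%) and 12.9%, and GCGTG in 6 (17.1%) and 25.9%. A match describes the letters and does not show that a factor binds there.

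The other family 4 genes mostly fell with both agents. Cyp4f4 (1387973_at), of the subfamily that inactivates leukotrienes, read 10.30 and 10.26 in vehicle, 10.60 and 10.57 after dexamethasone, 10.01 and 10.03 after AICAR, and 9.46 and 9.43 after both. It lay above vehicle with dexamethasone alone and lowest with both agents. Cyp4f4 was 2.20-fold lower after both than after dexamethasone (-1.14 ± 0.07, limma adjusted p = 1.32e-05). Its rise after dexamethasone of 0.30 ± 0.07 (adjusted p = 0.0159) was lost without dexamethasone replicate 1 or vehicle replicate 2. Cyp4f6 fell in all 3 comparisons with vehicle, by 0.45 after dexamethasone, 0.63 after AICAR and 1.00 after both, and Cyp4f1 fell by 0.28 after dexamethasone, a call lost without any one dexamethasone or vehicle array, and by 0.66 after both. Cyp4b1, an enzyme of lung and other tissues in most mammals, fell by 0.47 after both, and Cyp4v3 by 0.50. Cyp4f5 passed the threshold in no comparison and Cyp4f17 only with both agents against AICAR (-0.63 ± 0.13), a call lost without combination replicate 1.

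**Figure D2:**
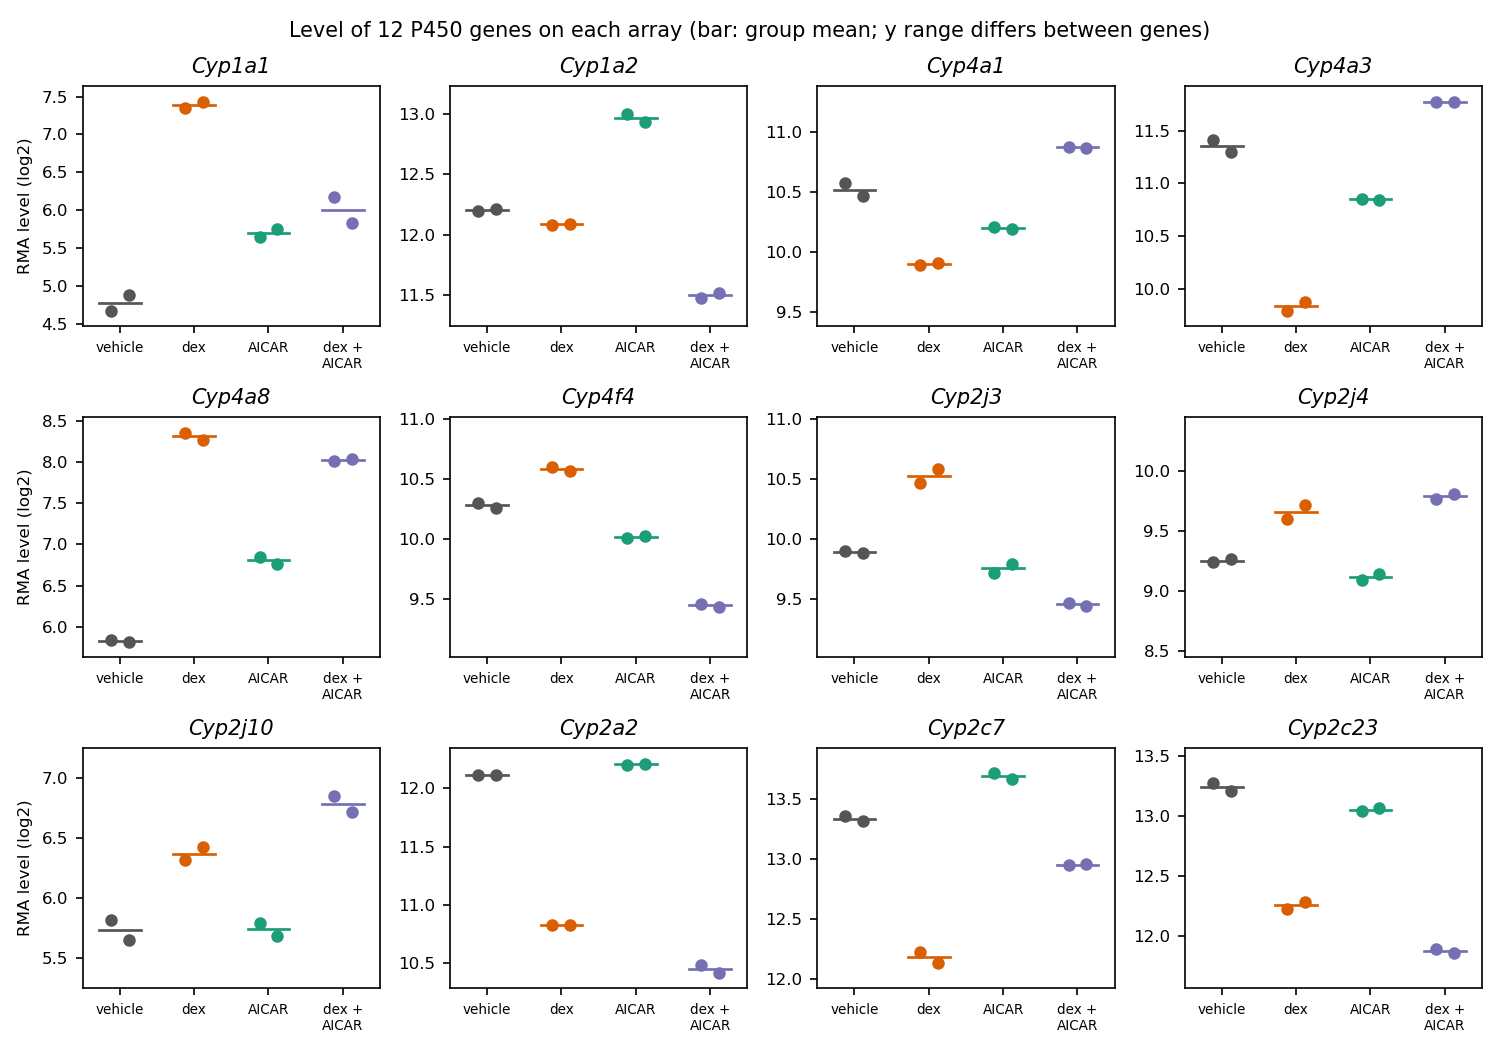
RMA level on the log2 scale of 12 P450 genes on each of the 8 arrays, by group (vehicle, dexamethasone, AICAR, both), with a bar at the mean of each pair; the y range differs between genes. Cyp4a1 and Cyp4a3 are lowest after dexamethasone and highest after both, Cyp1a1 and Cyp4a8 are highest after dexamethasone, and Cyp2a2 and Cyp2c23 are lowest after both.

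In family 2, the largest, with 25 genes, 4 rose and 9 fell after dexamethasone, and 2 rose and 14 fell after both. These are 16% and 36% of the family after dexamethasone, beside 8.37% and 14.3% of all genes. After both agents they are 8% and 56%, beside 15.9% and 18.4% of all genes. Cyp2a2 (1369424_at), a male-predominant testosterone hydroxylase, read 12.12 and 12.11 in vehicle, 10.82 and 10.83 after dexamethasone, 12.20 and 12.21 after AICAR, and 10.48 and 10.42 after both. Both groups that received dexamethasone lay below both groups that did not. It fell by 1.29 after dexamethasone (-1.29 ± 0.07, 2.45-fold lower, limma adjusted p = 5.91e-06) and by 1.67 after both (-1.67 ± 0.07, adjusted p = 7.02e-07), and its difference after AICAR was 0.09 ± 0.07 (adjusted p = 0.43). Its neighbour Cyp2a1, a steroid 7α-hydroxylase, differed from vehicle by -0.45 ± 0.14 after dexamethasone (adjusted p = 0.0604), and Cyp2a3, a gene of the airways, lay under 3.84, the lowest lower quartile of the arrays, in every group.

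In Cyp2c, whose products include the main sex-specific steroid hydroxylases of rat liver, 4 of 7 genes fell after dexamethasone and 5 after both, and none rose in either comparison. Of all genes 14.3% and 18.4% fell, but all 7 were bright, and of bright genes 38.3% and 58% were called, against 57.1% and 71.4% of Cyp2c. Cyp2c23 (1367988_at), the arachidonic acid epoxygenase of rat, read 13.28 and 13.21 in vehicle, 12.23 and 12.29 after dexamethasone, 13.04 and 13.07 after AICAR, and 11.90 and 11.86 after both. The arrays with dexamethasone lay lowest, and those with both agents below those with dexamethasone alone. It fell by 0.98 after dexamethasone (-0.98 ± 0.07, limma adjusted p = 3.5e-05) and by 1.36 after both (-1.36 ± 0.07, adjusted p = 2.96e-06).

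Cyp2c7 (1370241_at), a retinoic acid hydroxylase that is more abundant in female rats, read 13.36 and 13.32 in vehicle, 12.23 and 12.13 after dexamethasone, 13.72 and 13.67 after AICAR, and 12.95 and 12.96 after both. AICAR arrays lay highest, and the combination lay between dexamethasone and vehicle. Cyp2c7 fell by 1.16 after dexamethasone (-1.16 ± 0.07, limma adjusted p = 1.5e-05) and was higher with both agents than with dexamethasone alone (0.77 ± 0.07, adjusted p = 0.000152). Its rise after AICAR of 0.36 ± 0.07 (adjusted p = 0.0161) was lost when any one vehicle or AICAR array was left out, with an adjusted p of up to 0.0994. The bases upstream of Cyp2c7 are printed because it fell with dexamethasone and less so when AICAR was given too; they span chr1:247966144-247966393 of GRCr8 on the plus strand, with both motifs again in capitals.
Cyp2c7: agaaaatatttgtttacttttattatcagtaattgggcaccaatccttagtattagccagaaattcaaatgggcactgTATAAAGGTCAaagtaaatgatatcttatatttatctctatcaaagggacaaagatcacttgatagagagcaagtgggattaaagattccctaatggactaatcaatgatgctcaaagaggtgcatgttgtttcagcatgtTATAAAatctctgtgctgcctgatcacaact
TATAAA began 31 and 172 bases before the start, and the farther copy shares its last base with an AGGTCA half-site 167 bases before it.

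Among the other Cyp2c genes, the female-predominant Cyp2c12 fell by 0.81 after dexamethasone and by 0.45 after both, and Cyp2c22 by 0.37 and 0.69. In these male livers Cyp2c12 read 11.63 and 11.49 in vehicle, and whether related genes add to that signal was not tested. Cyp2c11, the chief male-specific steroid hydroxylase, differed from vehicle by -0.05 ± 0.07 after dexamethasone (limma adjusted p = 0.691). It fell by 0.27 after both (adjusted p = 0.0187), a call that was lost when any one vehicle or combination array was left out. Cyp2c13, also male-specific, passed the threshold in no comparison, with differences between -0.10 and 0.09; its probe set has the suffix of probes shared by several transcripts, so related genes may add to its signal. Cyp2c6v1 also passed in none.

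The Cyp2j enzymes make epoxides of arachidonic acid, and all 3 genes measured rose after dexamethasone, where 8.37% of all genes rose. Cyp2j3 (1370706_a_at) read 9.90 and 9.88 in vehicle, 10.47 and 10.59 after dexamethasone, 9.72 and 9.80 after AICAR, and 9.47 and 9.45 after both. It was highest with dexamethasone alone and lowest with both agents. Cyp2j3 rose by 0.64 ± 0.08 after dexamethasone (limma adjusted p = 0.000571) and fell by 0.44 after both (-0.44 ± 0.08, adjusted p = 0.00269), and its other probe set gave 0.62 and -0.97.

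The gene next to it, Cyp2j4 (1387296_at), read 9.24 and 9.27 in vehicle, 9.60 and 9.71 after dexamethasone, 9.09 and 9.14 after AICAR, and 9.77 and 9.81 after both. Unlike Cyp2j3, it stayed above vehicle with both agents, by 0.53 ± 0.07 (limma adjusted p = 0.000788). Cyp2j10 (1396327_at) read 5.81 and 5.65 in vehicle, 6.31 and 6.42 after dexamethasone, 5.79 and 5.69 after AICAR, and 6.85 and 6.72 after both. It rose by 0.64 ± 0.09 after dexamethasone (adjusted p = 0.00165) and by 1.05 ± 0.09 after both (2.07-fold, adjusted p = 6.03e-05), and AICAR alone left it within 0.01 ± 0.09 of vehicle (adjusted p = 0.967).

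In Cyp2d 1 of 3 genes rose and 1 fell after dexamethasone, where 8.37% of all genes rose and 14.3% fell. After both agents 2 fell, where 18.4% of all genes did. Cyp2d4, the main Cyp2d gene of rat brain, rose by 0.52 ± 0.07 after dexamethasone (limma adjusted p = 0.000965), and with both agents it was 0.07 from vehicle (adjusted p = 0.503). Its relatives Cyp2d2, the debrisoquine hydroxylase, and Cyp2d3 fell by 0.44 and 0.71 after both. In Cyp2b, Cyp2b1 and Cyp2b2 were not among the member genes. Cyp2b3 fell by 0.33 after dexamethasone, a call lost without dexamethasone replicate 1 or vehicle replicate 2, and by 0.40 after both. Cyp2b12 and Cyp2b21 lay under 3.84 in every group. Cyp2e1, the ethanol- and acetone-oxidising enzyme, differed from vehicle by -0.02 ± 0.07 after dexamethasone (adjusted p = 0.895) and -0.11 ± 0.07 after AICAR (adjusted p = 0.335). It fell by 0.25 after both (adjusted p = 0.0263), a call lost without any one vehicle or combination array.

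Cyp2u1, a fatty acid hydroxylase, fell in all 3 comparisons with vehicle, by 0.48 after dexamethasone, 0.56 after AICAR and 0.71 after both. Cyp2t1 fell by 0.45 after dexamethasone and by 0.85 after both, and Cyp2f4, known from the lung, by 0.61 after both. Cyp2s1 passed in no comparison and Cyp2g1, an olfactory gene, only with both agents against AICAR (-0.41 ± 0.13, limma adjusted p = 0.0446), a call that several single-array removals ended.

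In family 3, whose enzymes clear a large share of drugs and hydroxylate testosterone, no gene changed as much as 2-fold in any comparison. Cyp3a23-3a1, the steroid-inducible form known as a PXR target, read 12.74 and 12.74 in vehicle, 12.21 and 12.12 after dexamethasone, 12.35 and 12.40 after AICAR, and 12.15 and 12.14 after both. All treated arrays lay below both vehicle arrays. It fell by 0.57 after dexamethasone (-0.57 ± 0.07, limma adjusted p = 0.000757), by 0.36 after AICAR and by 0.60 after both. The fall after AICAR was lost without AICAR replicate 1 or either vehicle array. The male-specific Cyp3a2 read 13.73 and 13.51 in vehicle and 13.28 and 13.17 after dexamethasone, a fall of 0.40 ± 0.09 (adjusted p = 0.0175) that was lost when either vehicle replicate 1 or dexamethasone replicate 2 was left out.

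Cyp3a18 differed from vehicle by -0.17 ± 0.07 after either single agent (limma adjusted p = 0.148 after dexamethasone and 0.16 after AICAR) and fell by 0.86 after both (-0.86 ± 0.07, adjusted p = 5.05e-05). Cyp3a9 rose after dexamethasone by 0.39 ± 0.10 (adjusted p = 0.0254), a call lost without vehicle replicate 2 or either dexamethasone array, with 10.41 and 10.13 in vehicle and 10.68 and 10.63 after dexamethasone.

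The study set the agents side by side to ask how AMPK activation bears on glucocorticoid action, so the effect of each agent was also read in the presence of the other. With both agents against dexamethasone alone 5 P450 genes were higher and 18 lower, where 14% of all genes were higher and 11.3% lower. With both agents against AICAR alone 5 were higher and 23 lower, where 18.7% and 19.4% of all genes were. The median difference of the 42 genes was -0.21 in the first of these comparisons and -0.29 in the second, and those of all genes were 0.02 and -0.02. Among the bright genes, 64.3% and 78.6% of P450 genes were called, against 45.6% and 61.9% of all genes.

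The dexamethasone effect measured without AICAR and with it rests on separate arrays. It was called for 23 and 28 P450 genes, and 15 were called in both with 1 sign, which is 65.2% of the first list and 53.6% of the second. Over all bright genes these shares were 63% and 39%. A further 4 genes, 17.4% and 14.3% of the lists against 10.4% and 6.41% over bright genes, were called in both with opposite signs: Cyp4a1 and Cyp4a3 fell without AICAR and were higher with it, while Cyp2j3 and Cyp4f4 rose without AICAR and were lower with it. The call of Cyp2j3 with AICAR (-0.30 ± 0.08, limma adjusted p = 0.0153) was lost when AICAR replicate 2 or either combination array was left out. Over the 42 genes the 2 sets of differences had r = 0.48, and over all probe sets r = 0.49, given as a description, so the overlap is not read as particular to these families. The AICAR effect without and with dexamethasone was called for 12 and 23 genes, with 5 of 1 sign and 5 of opposite signs (Cyp1a1, Cyp1a2, Cyp4a1, Cyp4a3 and Cyp4a8). Each is 41.7% of the first list and 21.7% of the second, where bright genes had 33.6% and 18.2% of 1 sign and 19.4% and 10.5% of opposite signs. For Cyp4a8 the difference with dexamethasone present, -0.29 ± 0.07, lost its call without dexamethasone replicate 1 or either combination array. The AICAR effects without and with dexamethasone had r = -0.16 over the 42 genes and 0.11 over all probe sets.

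The interaction, which subtracts the effect of dexamethasone alone from its effect on top of AICAR, was called higher for 3 P450 genes and lower for 11, where 11.9% of all genes were higher and 8.05% lower. The call rate of bright P450 genes, 35.7%, was close to that of all bright genes, 36%, so the number of interactions is not a result about these families. The direction and size differed by gene: Cyp4a3 had 2.45 ± 0.11 (limma adjusted p = 4.14e-06) and Cyp4a1 1.29 ± 0.10 (adjusted p = 0.000109), while Cyp1a1 had -2.31 ± 0.17 (adjusted p = 7.22e-05), Cyp1a2 -1.36 ± 0.10 (adjusted p = 6.57e-05) and Cyp4a8 -1.26 ± 0.10 (adjusted p = 0.000137). In the Cyp1a pair both interactions were negative. In Cyp4a 2 of 3 genes were positive and 1 was negative.

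**Figure D3:**
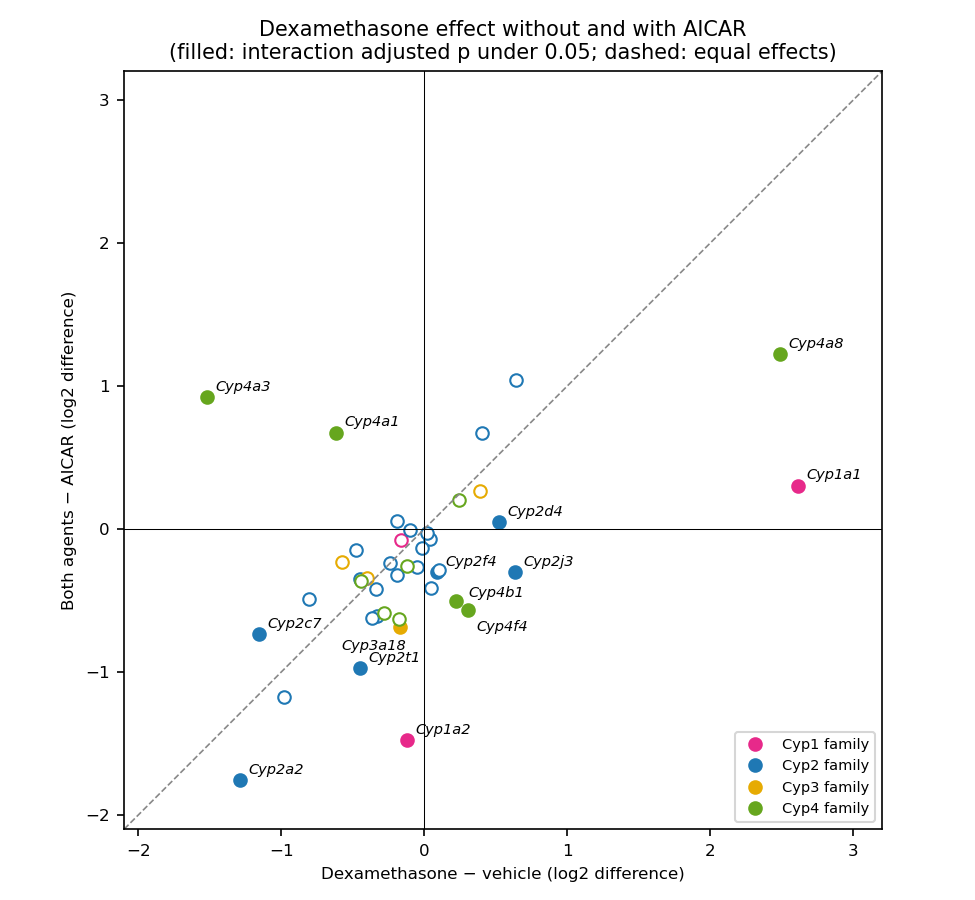
Dexamethasone effect without AICAR (x axis, dexamethasone minus vehicle) against that with AICAR (y axis, both agents minus AICAR), as log2 differences of the 42 P450 genes coloured by family; filled and named points passed the interaction test and the dashed line marks equal effects. Cyp4a3 and Cyp4a1 sit in the upper left, with opposite signs, and Cyp1a1 and Cyp4a8 sit right of the line; with AICAR present Cyp4a8 rose by 1.22 and the difference of Cyp1a1, 0.30, did not pass the test.

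The genes of 4 receptors that control P450 expression are given first, called or not. Nr1i2 (PXR) read 7.93 and 8.04 in vehicle, 9.00 and 9.03 after dexamethasone, 8.21 and 8.26 after AICAR, and 8.50 and 8.41 after both. It rose by 1.03 ± 0.08 after dexamethasone (limma adjusted p = 3.79e-05) and by 0.47 ± 0.08 after both (adjusted p = 0.00184). Nr1i3 (CAR) rose by 0.86 ± 0.08, 0.40 ± 0.08 and 0.79 ± 0.08 after dexamethasone, AICAR and both. Ahr read 5.15 and 5.13 in vehicle, 5.98 and 5.93 after dexamethasone, 6.37 and 6.31 after AICAR, and 5.51 and 5.46 after both. It was highest after AICAR. It rose by 0.82 ± 0.07, 1.20 ± 0.07 and 0.34 ± 0.07. Ppara rose by 0.61 ± 0.12 after dexamethasone (adjusted p = 0.0087) and 0.52 ± 0.12 after both (adjusted p = 0.0129), with 0.30 ± 0.12 after AICAR (adjusted p = 0.156).

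Por, which encodes the oxidoreductase that feeds electrons to all microsomal P450 enzymes, read 7.91 and 8.02 in vehicle, 9.68 and 9.96 after dexamethasone, 8.39 and 8.49 after AICAR, and 9.21 and 9.18 after both. All treated arrays lay above vehicle. It rose by 1.85 ± 0.10 after dexamethasone (limma adjusted p = 6.47e-06), by 0.48 ± 0.10 after AICAR (adjusted p = 0.0183) and by 1.23 ± 0.10 after both (adjusted p = 4.05e-05). Of the 17 genes measured on a list of redox partners and haem synthesis and breakdown, 2 rose and 11 fell after dexamethasone, 3 rose after AICAR, and 4 rose and 9 fell after both. The share called was 76.5%, 17.6% and 76.5%, beside 22.7%, 15.2% and 34.4% of all genes and 38.3%, 24.6% and 58% of bright genes. The median difference of these 17 genes was -0.36 after dexamethasone, 0.05 after AICAR and -0.22 after both. Hmox1, the haem-degrading enzyme, was among those that fell after both (-1.44 ± 0.10).

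Of 35 genes on the list of P450 regulators, 10 rose, 5 fell and 20 did not pass the test after dexamethasone. After AICAR 4 rose, 5 fell and 26 did not pass, and after both 7 rose, 11 fell and 17 did not pass. The share called was 42.9%, 25.7% and 51.4%, where 22.7%, 15.2% and 34.4% of all genes were called. The median differences of the list were 0.12, 0.08 and 0.01. The widest fall was in Nr0b2, which encodes the repressor SHP: it read 8.84 and 8.95 in vehicle, 9.15 and 9.10 after dexamethasone, 8.73 and 8.64 after AICAR, and 4.91 and 4.75 after both. It was low on the combination arrays and within 0.23 of vehicle in the means of the other groups. Nr0b2 fell by 4.07 after both (-4.07 ± 0.09, limma adjusted p = 2.45e-08). Nr3c1, the glucocorticoid receptor gene, fell by 1.26 after both (-1.26 ± 0.09, adjusted p = 1.67e-05), and Onecut1, a hepatocyte transcription factor gene, by 1.84 after AICAR.

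**Figure D4:**
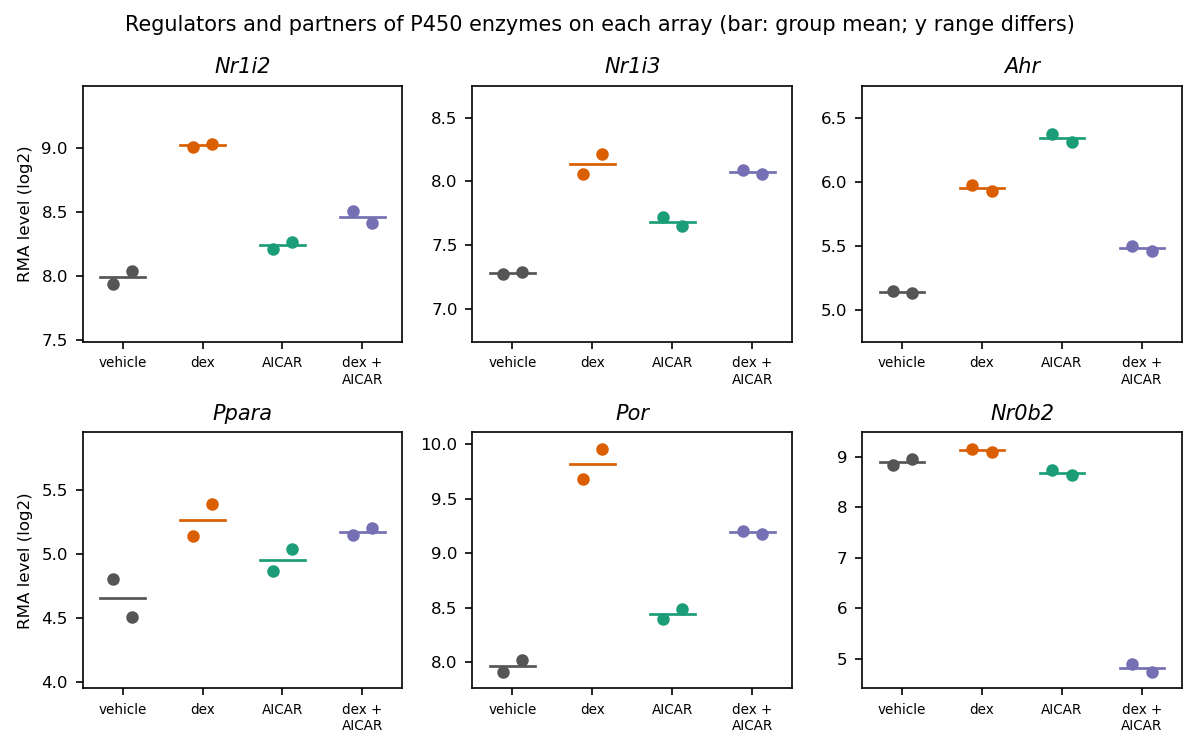
RMA level on the log2 scale of 4 receptor genes (Nr1i2, Nr1i3, Ahr, Ppara), of Por and of Nr0b2 on each of the 8 arrays, by group, with a bar at the mean of each pair; the y range differs between genes. Nr1i2 and Por are highest after dexamethasone, Ahr is highest after AICAR, and Nr0b2 is at 4.91 and 4.75 after both and between 8.64 and 9.15 elsewhere.

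Targets of the same receptors outside the P450 families included genes that rose and genes that fell. For comparison, 22.7% of all genes were called after dexamethasone, 15.2% after AICAR and 34.4% after both. Of 13 PXR and CAR targets, 3 rose and 9 fell after dexamethasone; the carboxylesterase gene Ces2c rose by 6.10 ± 0.14, while the epoxide hydrolase gene Ephx1 (-2.03 ± 0.07), the organic anion transporter gene Slco1a4 (-2.21 ± 0.07) and Aldh1a1 (-2.74 ± 0.08) fell. Of 4 AHR targets 1 rose after AICAR and 1 fell, and the one that rose was Nqo1, a quinone reductase gene (2.06 ± 0.07). Unlike Cyp1a2, Nqo1 was also higher after both agents (1.98 ± 0.07). Of 19 PPARα targets, 6 rose and 9 fell after dexamethasone, 6 fell after AICAR, and 7 rose and 6 fell after both. The median difference after dexamethasone was -0.36 for the PXR and CAR targets and -0.14 for the PPARα targets. Por and Alas1 are on the PXR and CAR list and also on that of redox partners and haem, so these lists are not independent.

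The peroxisomal enzyme gene Ehhadh, a PPARα target like Cyp4a3, fell after dexamethasone (-2.12 ± 0.10) and, in contrast to Cyp4a3, fell by 2.43 after both (-2.43 ± 0.10). Ehhadh had the lowest difference of the 19 PPARα targets in each of these comparisons. After both agents 7 of the 19 rose and 6 fell, and the highest difference was 1.16. Of 12 genes of pericentral hepatocytes, the zone in which many P450 genes are expressed, 5 fell and 1 rose after dexamethasone, and the same numbers did after both, where 14.3% and 18.4% of all genes fell. The ornithine aminotransferase gene Oat fell by 2.08 after both (-2.08 ± 0.07). Of 10 genes of the growth hormone axis, 4 fell after dexamethasone, and 7 fell and 1 rose after both, where again 14.3% and 18.4% of all genes fell. Of the 13 P450 genes of families 7 and above, 3 rose and 1 fell after dexamethasone, 3 and 1 after AICAR, and 4 and 2 after both. The share called was 30.8%, 30.8% and 46.2%, where 22.7%, 15.2% and 34.4% of all genes were called. The bile acid synthesis gene Cyp7a1 rose by 2.11 ± 0.07 after AICAR, and Cyp8b1, which sets the share of cholic acid, rose by 1.61 ± 0.08 after both.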

How the data were processed

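Gene expression was measured on 8 Affymetrix arrays, 2 for each of 4 groups. The values were deposited on the log2 scale by the authors, who used RMA from affy, per the submitters' processing notes; the tools' versions are not given in the sources used here, and the base of the logarithm was taken from the range of the values. RMA gives no detection call and understates changes of dim probe sets. Arrays have no read depth, so the 2 arrays per group limit the precision.

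The 57 array controls were left out, and 31042 probe sets were tested in limma 3.58.1 (R 4.3.3). The model had a mean for each group, fitted to all 8 arrays; eBayes added 4.58 prior to 4 residual degrees of freedom, and p-values were adjusted by Benjamini-Hochberg over all probe sets. The threshold was an adjusted p of 0.05. For 2 arrays against 2, the smallest two-sided p of an exact permutation test is 0.333, so none was used. The code was tested on simulated data.

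Symbols came from the platform annotation and promoters from RefSeq (GRCr8): all 42 gene IDs matched a record and 35 a promoter, cropped to the 250 bases before the start. GRCr8 was also used for which genes are neighbours. Named with all arrays' values were P450 genes called with a change of at least 2-fold in any of 6 comparisons, and well-known liver P450 genes; of the other lists, called genes past 2-fold and 5 fixed regulators and partners were eligible. The P450 genes, lists and tests were chosen with earlier results of these data known. Alternatives changed the prior (trended and robust), the scaling (cyclic loess, or centring on brighter probe sets), the samples fitted (only the groups compared, or each array left out), the block (replicate number) and the features (dim ones left out, or means over a gene's probe sets).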

Additional observations from a re-analysis of the deposited data

Results flagged for a closer look

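The dexamethasone effect with AICAR differed from that without AICAR, by limma's interaction test, for 14 of the 42 P450 genes. That is 33.3%, where 20% of all genes were called. Of bright P450 genes 35.7% were called, beside 36% of all bright genes, so this number is not a result about these families. The interaction was positive for Cyp4a3 (2.45, adjusted p = 4.14e-06), Cyp4a1 (1.29, adjusted p = 0.000109) and Cyp2c7 (0.42, adjusted p = 0.0268) on the log2 scale. It was negative for Cyp1a1 (-2.31, adjusted p = 7.22e-05), Cyp1a2 (-1.36, adjusted p = 6.57e-05), Cyp4a8 (-1.26, adjusted p = 0.000137), Cyp2j3 (-0.94, adjusted p = 0.000767), Cyp4f4 (-0.87, adjusted p = 0.000683) and Cyp4b1 (-0.72, adjusted p = 0.00682). Smaller negative values were those of Cyp2t1 (-0.52, adjusted p = 0.0162), Cyp3a18 (-0.51, adjusted p = 0.0118), Cyp2d4 (-0.47, adjusted p = 0.0121), Cyp2a2 (-0.47, adjusted p = 0.0133) and Cyp2f4 (-0.39, adjusted p = 0.0458). Every one of these 5 except Cyp2d4 lost its call when at least 1 array was left out, and so did Cyp2c7.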

How the results depend on the processing

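Over 15 alternative settings no called P450 gene reversed its direction. Counts of called genes stayed within 1.5 times the main count, with these exceptions: a trended and robust prior gave 20 genes in place of 12 for AICAR against vehicle and 23 in place of 14 for the interaction, and leaving out 1 array gave 6 to 12 for AICAR against vehicle. Leaving out 1 array gave 19 to 23 genes for dexamethasone against vehicle, 26 to 29 for both agents against vehicle, 17 to 23 against dexamethasone, 19 to 29 against AICAR and 10 to 14 for the interaction. Replicate numbers did not pair the arrays (correlations of -0.04 to 0.16); with the replicate number as a block the counts were 24, 10, 28, 22, 27 and 13, in the order dexamethasone, AICAR and both against vehicle, both against dexamethasone, both against AICAR, and the interaction. Centring on brighter probe sets moved the share of higher calls among all called probe sets from 47% to 57.6% for dexamethasone, from 42.2% to 56.1% for AICAR and from 55.1% to 44% for the interaction, while the P450 counts after dexamethasone stayed at 8 higher and 15 lower. The fit of only the groups compared was not run for the interaction. Signal over background limits Cyp2a3, Cyp2b12 and Cyp2b21, whose group means all lay below 3.84.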
